A study of Homo sapiens with 15 samples.

Results

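The miR-221 and miR-222 microRNAs were measured as 4 mature strands, hsa-miR-221-3p, hsa-miR-222-3p, hsa-miR-221-5p and hsa-miR-222-5p, chosen by name from a table of 1619 mature miRNAs. All 4 passed the filter on low counts, among 534 miRNAs tested. The 3p strands were among the abundant miRNAs of the libraries, with a mean of 6109 ± 1598 CPM for miR-221-3p and 5658 ± 1476 CPM for miR-222-3p (SD, n = 12 libraries). CPM are read counts scaled to library size, here with TMM factors, which correct the totals for composition. The 5p strands averaged 249 ± 44.6 CPM for miR-221-5p and 32.2 ± 12.5 CPM for miR-222-5p (SD, n = 12).

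The material was small RNA of DiFi, an established human colorectal cancer line, and the stated purpose was to compare ways of culturing these cells for the collection of RNA carriers that they secrete. Cell pellets, unfiltered HDM, filtered HDM and the cells of plates 1, 2 and 3 had 2 libraries each. In each of these 6 kinds, 1 library was HF6 and the other HF7. HDM media and regular media had 1 library each. The labels spell out neither HDM nor HF, and give no treatment, time or plate condition beyond these names. They do not say whether the libraries of a kind came from separate cultures, so that the p-values reflect a spread that may be technical. Nor do they say whether filtered and unfiltered HDM of 1 HF number share a source. All libraries are labelled with the same cell line. Levels are relative to the other miRNAs of a library, as the table has no spike-in.

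miR-221 and miR-222 are a pair of neighbouring hairpins on the X chromosome that are made from 1 precursor transcript. Each hairpin is cleaved by Drosha and Dicer into a 5p and a 3p strand, of which mainly the 3p strand is loaded into Argonaute and guides silencing. The pair is known for acting on the messenger RNAs of the cell cycle inhibitor p27 (CDKN1B) and of the receptor KIT, and is often raised in carcinomas.

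The 4 sequences are shown because the 3p strands share a seed across the hairpins and the 5p strands do not. Capitals mark the seed, bases 2 to 8 from the 5′ end, which sets most target pairing. The sequences are those of the deposited table, written with T.
hsa-miR-221-3p: aGCTACATtgtctgctgggtttc
hsa-miR-222-3p: aGCTACATctggctactgggt
hsa-miR-221-5p: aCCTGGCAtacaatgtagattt
hsa-miR-222-5p: cTCAGTAGccagtgtagatcct
The 3p strands shared their first 8 bases and were identical at 11 of 21 positions. Positions were counted from the 5′ end without gaps, so that stretches shared at shifted positions do not count as identical. Among the 1619 entries, miR-221-3p and miR-222-3p alone carried the seed GCTACAT. The 5p strands were identical at 3 of 22 positions by this count, and each had a seed that no other entry carried. Outside the seeds they shared a run of 7 bases, TGTAGAT, at shifted positions.

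Each strand had 1 location in the table, on the minus strand of chromosome X in GRCh38. miR-221-3p lay at X:45746180-45746202, miR-221-5p at X:45746221-45746242, miR-222-3p at X:45747036-45747056 and miR-222-5p at X:45747073-45747094. The hairpins are shown to place both strands, which are in capitals, on the RNA they are cut from (RefSeq, GRCh38.p14, written with U).
MIR221: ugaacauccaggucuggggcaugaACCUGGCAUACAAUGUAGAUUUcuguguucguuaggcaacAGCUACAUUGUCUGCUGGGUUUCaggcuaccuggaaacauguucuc
MIR222: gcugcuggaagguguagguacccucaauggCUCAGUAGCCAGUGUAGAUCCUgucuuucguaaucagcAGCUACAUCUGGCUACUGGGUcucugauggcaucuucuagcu
MIR221 spans X:45746157-45746266 and MIR222 spans X:45747015-45747124, with 748 bases between them. Both lie within the gene of the long non-coding RNA MIR222HG, at X:45745211-45770274 in GENCODE release 29, and the strands lie in the exons of MIR221 and MIR222, outside the annotated exons of MIR222HG. No other entry of the table lay within 10 kb.

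Library totals ran from 205738 counts in HF7 unfiltered HDM and 313380 in the HF7 pellet to 4896917 in regular media. As a check of the labelled cells, 6 epithelial miRNAs of the miR-200 and miR-192 families summed to between 176575 and 338035 CPM. The 3 stromal markers in the table reached at most 3.36 CPM in sum, and the hepatocyte miRNA miR-122-5p at most 0.84 CPM. The 3 erythroid markers reached at most 21.7 CPM. The 3 muscle markers summed to between 32.0 and 108 CPM in pellets and to at most 22.3 CPM elsewhere. The 2 neural markers reached at most 54.2 CPM, also in a pellet. The 4 leukocyte markers summed to between 1266 and 4066 CPM, a level carried in part by hsa-miR-142-5p, which had between 348 and 1778 CPM. Between HDM and plate cells, the 6 epithelial markers (176575 to 199755 against 218681 to 256931 CPM) and the 2 endothelial markers (20.2 to 31.5 against 54.5 to 138 CPM) were lower in every HDM library. So were the erythroid markers (0 to 2.96 against 6.30 to 16.1 CPM), and the leukocyte markers were lower in filtered HDM (1266 to 1490 against 2413 to 4066 CPM). Their part in the results below was not tested.

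miR-221-3p was highest in the HF6 pellet and lowest in the HF7 pellet, at 8471 and 3240 CPM. Its level was 6843 (HF6) and 6920 CPM (HF7) in unfiltered HDM, and 7876 and 7549 CPM in filtered HDM. In HF6 and HF7 cells it was 6940 and 6250 CPM on plate 1, 4856 and 4897 CPM on plate 2, and 4328 and 5132 CPM on plate 3. Thus HDM and plate 1 cells were high, plates 2 and 3 were low, and the pellets held both extremes. The upper extreme depends on the scaling: by total-count CPM the HF6 pellet was at 6368, below all 4 HDM libraries (7500 to 8580). In order of the mean, the kinds ran from filtered HDM (7713 ± 232 CPM, SD, n = 2) through unfiltered HDM (6881 ± 54.7), plate 1 (6595 ± 488), pellets (5856 ± 3699) and plate 2 (4877 ± 29.5) to plate 3 (4730 ± 569). Neighbouring kinds overlapped at every step of this order except the first, where both filtered libraries were above both unfiltered ones with TMM factors but not by total counts. In HDM media it stood at 5388 CPM and in regular media at 5751 CPM, each from a single library.

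miR-222-3p followed the same order in HDM and on plate 1. It was measured at 6605 (HF6) and 2381 CPM (HF7) in pellets, 6782 and 6912 CPM in unfiltered HDM, and 7313 and 7133 CPM in filtered HDM. On plate 1 it was 6444 and 5411 CPM, on plate 2 5009 and 4201 CPM, and on plate 3 4689 and 5017 CPM. The order of the means was filtered HDM (7223 ± 127 CPM, SD, n = 2), unfiltered HDM (6847 ± 92.0), plate 1 (5928 ± 730), plate 3 (4853 ± 232), plate 2 (4605 ± 571) and pellets (4493 ± 2987). With TMM factors the libraries did not overlap down to plate 1 or between plates 1 and 3, while plates 3 and 2 overlapped and the pellets spanned both. On the same scale HDM media held 6516 CPM, below the HDM samples, and regular media 7054 CPM, within their range. By total-count CPM this placement was reversed. HDM media was at 7490, within the HDM range of 7409 to 8117, and regular media at 7197, below it. The 3p strands together took from 0.497% of all counts in the HF7 pellet to 1.65% in HF6 filtered HDM, and ranked between 27 and 58 in abundance.

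The 5p strands, the lesser products of both hairpins, were ordered differently. miR-221-5p was at 198 (HF6) and 181 CPM (HF7) in pellets, 219 and 257 CPM in unfiltered HDM, and 221.4 and 221.5 CPM in filtered HDM. In plate cells it was 274 and 328 CPM on plate 1, 263 and 282 CPM on plate 2, and 310 and 232 CPM on plate 3. The pellets were its lowest kind and plate 1 its highest, and the 3 plates overlapped each other. miR-222-5p was at 28.5 and 36.1 CPM in pellets, 23.0 and 45.5 CPM in unfiltered HDM and 22.2 and 14.1 CPM in filtered HDM. Plate 1 cells held 54.2 and 47.9 CPM, plate 2 cells 40.5 and 28.0 CPM and plate 3 cells 21.1 and 24.7 CPM. Plate 1 was highest and filtered HDM lowest by the mean. The precision of this strand was low: it had 10 counts in the HF7 pellet and 11 in HF7 unfiltered HDM, against 192 on HF6 plate 1. HDM media and regular media held 202 and 315 CPM of miR-221-5p and 29.1 and 30.8 CPM of miR-222-5p.

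**Figure D1:**
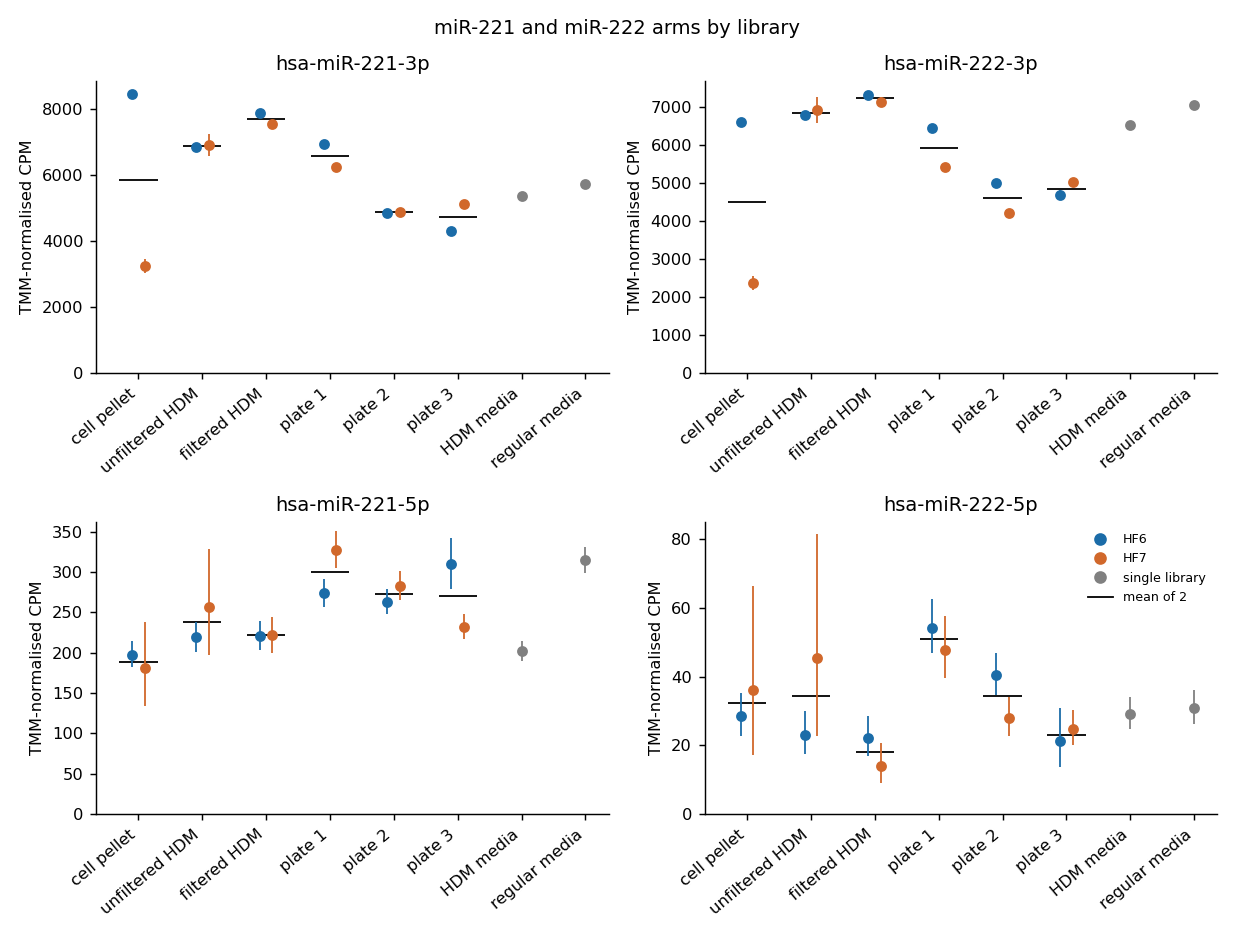
Level of each strand in TMM-normalised CPM (y axis, from 0) by kind of sample (x axis); points are libraries with 95% counting intervals, coloured by HF number, and bars are means of 2 libraries. The 3p strands are spread widely in pellets, from 3240 to 8471 CPM for miR-221-3p, and closely in HDM, while the 5p strands have their highest means on plate 1.

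HDM samples against plate cells compared what the HDM libraries contain with the cells on plates. In HDM, miR-221-3p averaged 7297 ± 499 CPM and miR-222-3p 7035 ± 236 CPM (SD, n = 4), against 5401 ± 986 and 5128 ± 760 CPM in plate cells (SD, n = 6). The 5p strands had the opposite sign, with 230 ± 18.0 against 281 ± 34.1 CPM for miR-221-5p and 26.2 ± 13.5 against 36.1 ± 13.5 CPM for miR-222-5p. None of the 4 strands passed, in a comparison where 31.1% of tested miRNAs did. The fitted log2 difference was 0.40 ± 0.21 for miR-221-3p (SE, 95% interval -0.05 to 0.85, adjusted p = 0.170, edgeR quasi-likelihood test with Benjamini-Hochberg adjustment). For miR-222-3p it was 0.42 ± 0.22 (-0.06 to 0.89, edgeR adjusted p = 0.177). For miR-221-5p it was -0.34 ± 0.16 (-0.69 to 0.00, edgeR adjusted p = 0.129), and for miR-222-5p -0.63 ± 0.23 (-1.12 to -0.13, edgeR adjusted p = 0.0517). Every HDM library was above every plate library for miR-222-3p, which was so of 8.43% of tested miRNAs, while miR-221-3p overlapped at HF6 plate 1. By total-count CPM neither 3p strand overlapped between HDM and plates, beside 13.7% of tested miRNAs that were higher in this way. The calls depended on the fit: both 3p strands passed with limma-voom (adjusted p = 0.0172 and 0.0188), with total counts alone (edgeR adjusted p = 0.0124 and 0.0145), and without the HF7 pellet (0.000484 and 0.000695) or the HF6 pellet (0.00407 and 0.00426). miR-222-5p passed in 7 of 21 alternatives, among them limma-voom (adjusted p = 0.0227), the 50-count filter (0.0304) and fits without the HF6 pellet (0.0161), and was at -0.28 (0.535) without HF6 unfiltered HDM. miR-221-5p passed with the 50-count filter (edgeR adjusted p = 0.0348) and without the HF6 pellet (0.0474). With total counts alone the 5p strands did not pass, at -0.13 for miR-221-5p (edgeR adjusted p = 0.521) and -0.44 for miR-222-5p (0.190). Nor did the 3p strands pass with HF number as a block (edgeR adjusted p = 0.135 and 0.113) or with plates grouped by HF number (0.346 and 0.314). The pellets are in neither group, but their spread enters the shared error.

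By plate number, miR-222-5p rose on plate 1 relative to plates 2 and 3, by 0.91 ± 0.26 on the log2 scale (SE, 95% interval 0.35 to 1.46, edgeR adjusted p = 0.0178). It was the single strand of the 4 that passed, in a comparison where 26% of tested miRNAs were called and 14.6% were called higher. Both plate 1 libraries were above all 4 others for miR-222-5p, miR-221-3p and miR-222-3p, as were those of 25.1% of tested miRNAs. By total-count CPM miR-222-3p overlapped, while miR-222-5p and miR-221-3p did not, beside 19.5% of tested miRNAs that were higher in this way. The difference was 0.51 ± 0.28 for miR-221-3p (-0.09 to 1.11, edgeR adjusted p = 0.205), 0.38 ± 0.30 for miR-222-3p (-0.26 to 1.01, edgeR adjusted p = 0.388) and 0.19 ± 0.21 for miR-221-5p (-0.26 to 0.63, edgeR adjusted p = 0.548). The call of miR-222-5p was lost with total counts alone (0.71, edgeR adjusted p = 0.0673), without the low-count filter (0.75, 0.130) and with DESeq2 (0.84, DESeq2 adjusted p = 0.102), and without HF6 plate 1 (0.75, 0.190), HF7 plate 1 (1.04, 0.0623), HF7 plate 2 (0.78, 0.0793) or HF7 plate 3 (0.96, 0.0508). In a fit of the 6 plate libraries alone both 3p strands passed (edgeR adjusted p = 0.00480 and 0.0347). Between plates 3 and 2, where 0.187% of tested miRNAs were called, no strand passed: edgeR adjusted p was at least 0.723, and the log2 differences were -0.05 (-0.76 to 0.65) for miR-221-3p, 0.06 (-0.68 to 0.81) for miR-222-3p, -0.02 (-0.54 to 0.50) for miR-221-5p and -0.58 (-1.27 to 0.11) for miR-222-5p.

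The 3p strands differed most between the 2 pellet libraries. The HF6 pellet had 2.61-fold the level of the HF7 pellet for miR-221-3p and 2.77-fold for miR-222-3p, against 1.09-fold for miR-221-5p. By total-count CPM the 3p folds were 2.22 and 2.36. In the 5 other kinds, the HF6 over HF7 ratio of the 3p strands lay between 0.84 and 1.19. The pellets as a whole were also less alike, with a median absolute log2 difference of 0.479 over 184 miRNAs of at least 100 CPM on average, against 0.148 to 0.238 in the other kinds. Of these miRNAs, 84.8% differed less between pellets than miR-221-3p and 89.1% less than miR-222-3p. The HF7 pellet was also the shallower library by counts, 313380 against 3829742, and its part in this difference was not tested. Over all 6 kinds, HF7 against HF6 gave a log2 difference of -0.28 (-0.66 to 0.10) for miR-221-3p, -0.37 (-0.75 to 0.00) for miR-222-3p, -0.06 (-0.37 to 0.26) for miR-221-5p and -0.16 (-0.59 to 0.28) for miR-222-5p. None of the 4 passed (edgeR adjusted p from 0.606 to 0.919), and with the 6 plate libraries alone miR-221-3p was at 0.029. No miRNA of the 534 did, or 0%, with edgeR, DESeq2 or limma-voom, while 39 had an unadjusted edgeR p below 0.05.

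Against this spread, none of the 4 strands passed between HDM and pellets, whereas 30.9% of tested miRNAs were called for unfiltered HDM and 39.1% for filtered HDM. Both comparisons share the pellets. For unfiltered HDM the log2 differences were 0.11 ± 0.33 for miR-221-3p (-0.59 to 0.82, edgeR adjusted p = 0.826), 0.48 ± 0.35 for miR-222-3p (-0.26 to 1.23, 0.322), 0.21 ± 0.26 for miR-221-5p (-0.35 to 0.76, 0.581) and -0.19 ± 0.40 for miR-222-5p (-1.05 to 0.66, 0.756). For filtered HDM they were 0.34 ± 0.33 (-0.37 to 1.04, edgeR adjusted p = 0.442), 0.62 ± 0.35 (-0.12 to 1.36, 0.180), 0.17 ± 0.25 (-0.36 to 0.71, 0.610) and -0.78 ± 0.37 (-1.56 to 0.01, 0.112) in the same order. miR-222-3p and miR-221-5p were above both pellets in both kinds of HDM, as were 29.8% of tested miRNAs for unfiltered and 37.5% for filtered HDM, and miR-222-5p was below both pellets in filtered HDM, as were 26.4%. By total-count CPM miR-222-5p overlapped with the pellets, while miR-221-3p joined the strands above both. On that scale 44% of tested miRNAs were above both pellets without overlap for unfiltered HDM, and 48.7% for filtered HDM. One pellet decided the 3p values: without the HF6 pellet, miR-221-3p passed at 1.05 in unfiltered and 1.27 in filtered HDM (edgeR adjusted p = 0.000767 and 7.87e-05) and miR-222-3p at 1.49 and 1.62 (3.26e-05 and 9.34e-06). Without the HF7 pellet these values were -0.36, -0.17, 0.00 and 0.09, and none passed. With total counts as the scaling, which moves the median miRNA by 0.58 (unfiltered) and 0.47 (filtered), both 3p strands and miR-221-5p passed, with miR-222-3p at 1.13 and 1.11.

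Pellets against plate cells gave 0.18 ± 0.27 for miR-221-3p (-0.39 to 0.75, edgeR adjusted p = 0.653), -0.14 ± 0.29 for miR-222-3p (-0.75 to 0.47, 0.756) and -0.14 ± 0.30 for miR-222-5p (-0.79 to 0.51, 0.761). miR-221-5p was below all plate libraries in both pellets, with a difference of -0.53 ± 0.21 (-0.99 to -0.08, edgeR adjusted p = 0.0709). Of the tested miRNAs, 32.6% passed in this comparison, no strand of the 4 among them, and 19.3% were lower without overlap. miR-221-3p turned with the pellet used: it passed at -0.76 without the HF6 pellet (edgeR adjusted p = 0.00563) and at 0.71 without the HF7 pellet (0.000549), and miR-222-3p at -1.14 (0.000328) and 0.42 (0.0404). miR-221-5p passed with total counts (-0.84, edgeR adjusted p = 0.00448), with a minimum of 50 counts in 2 libraries (-0.64, 0.0160), and without HF7 plate 3 (-0.61, 0.04996), HF6 unfiltered HDM (-0.62, 0.0428) or HF7 unfiltered HDM (-0.62, 0.0429).

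None of the 4 strands passed between filtered and unfiltered HDM, where 0.562% of tested miRNAs were called. The log2 differences were 0.22 ± 0.33 for miR-221-3p (-0.48 to 0.93), 0.14 ± 0.35 for miR-222-3p (-0.61 to 0.88), -0.03 ± 0.25 for miR-221-5p (-0.57 to 0.50) and -0.58 ± 0.38 for miR-222-5p (-1.40 to 0.23), with edgeR adjusted p of at least 0.868. Both filtered libraries were above both unfiltered ones for each 3p strand, as for 21.3% of tested miRNAs, and below them for miR-222-5p, as for 18.9%. By total-count CPM the 3p strands overlapped, and miR-222-5p did not, beside 23.4% of tested miRNAs that were lower without overlap. The intervals allow changes of either sign for all 4.

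**Figure D2:**
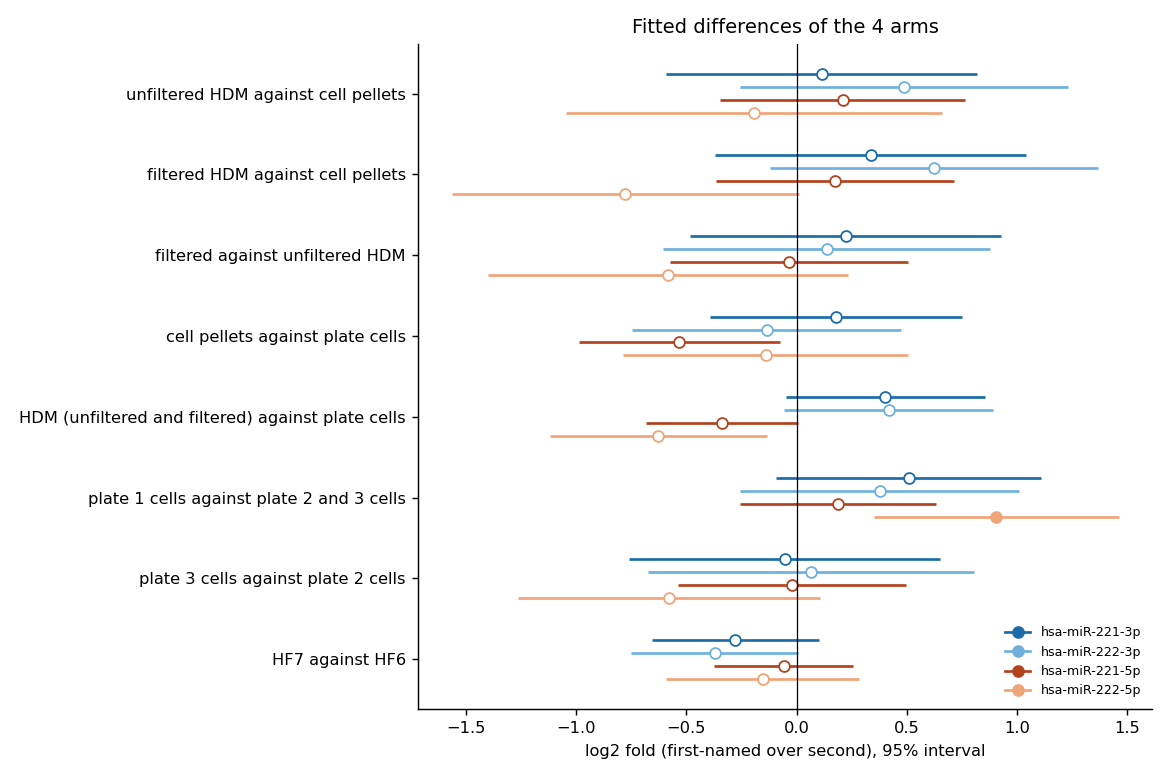
Fitted log2 difference (x axis, first-named over second-named group) of the 4 strands in 8 comparisons (y axis), with 95% intervals; filled points have an edgeR adjusted p under 0.05 and open points do not. The one filled point is miR-222-5p on plate 1 at 0.91, and in HDM against plate cells the 3p strands lie above 0 and the 5p strands below.

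Because the strands of 1 hairpin are measured in the same library, their ratio needs no scaling. Ratios were computed with 0.5 counts added to each strand. miR-221 gave 31.2 (HF6) and 26.8 (HF7) 3p reads per 5p read in unfiltered HDM and 35.6 and 34.0 in filtered HDM. In plate cells it gave 25.4 and 19.1 on plate 1, 18.5 and 17.3 on plate 2, and 13.96 and 22.1 on plate 3. All 4 HDM libraries were therefore above all 6 plate libraries, which held for 5.67% of the 141 hairpins with both strands tested. The pellets were at 42.8 and 17.8, on both sides of the HDM range.

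miR-222 was more skewed toward its 3p strand than miR-221 in each of the 14 libraries. Its ratio was 292 and 145 in unfiltered HDM, 327 and 498 in filtered HDM, 119 and 112 on plate 1, 123 and 149 on plate 2, 218 and 202 on plate 3, and 230 and 62.8 in pellets. HDM and plates overlapped through HF7 unfiltered HDM, whose 11 reads of the 5p strand give a 95% counting interval of 84.6 to 305. The log2 difference between HDM and plates was 0.73 ± 0.29 for miR-221 (0.08 to 1.39, limma adjusted p = 0.132) and 0.95 ± 0.38 for miR-222 (0.08 to 1.83, limma adjusted p = 0.135). Neither passed after adjustment, in a comparison where 12.8% of hairpins did, and the median of the major over the minor strand moved by -0.05 over the 141 hairpins. Without either pellet library both passed, with limma adjusted p of 0.0319 for miR-221 and 0.0313 for miR-222. Filtered HDM against pellets, where 29.1% of hairpins passed, gave 1.74 ± 0.60 for miR-222 (0.39 to 3.10, limma adjusted p = 0.0581), with 2.68 (0.00272) without the HF6 pellet and 0.81 (0.219) without the HF7 pellet.

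The 3p strands, which share a seed, were close to equal in number in HDM and on plates. miR-222-3p over miR-221-3p was 0.991 and 0.999 in unfiltered HDM and 0.929 and 0.945 in filtered HDM. It was 0.928 and 0.866 on plate 1, 1.03 and 0.858 on plate 2, and 1.08 and 0.977 on plate 3. HDM and plates overlapped, with a log2 difference of 0.02 (two-sided exact permutation test of 4 against 6 libraries, p = 0.810). The test treats the 4 HDM libraries as independent, although filtered and unfiltered HDM of 1 HF number may share a source. The pellets had the lowest ratios of the 14 libraries, 0.780 (HF6) and 0.735 (HF7), while their 3p levels differed 2.61- and 2.77-fold. HDM media (1.21, 95% counting interval 1.19 to 1.23) and regular media (1.23, 1.21 to 1.25) had the highest. These intervals cover counting error only, and with 1 library of each medium there is no replicate check.

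**Figure D3:**
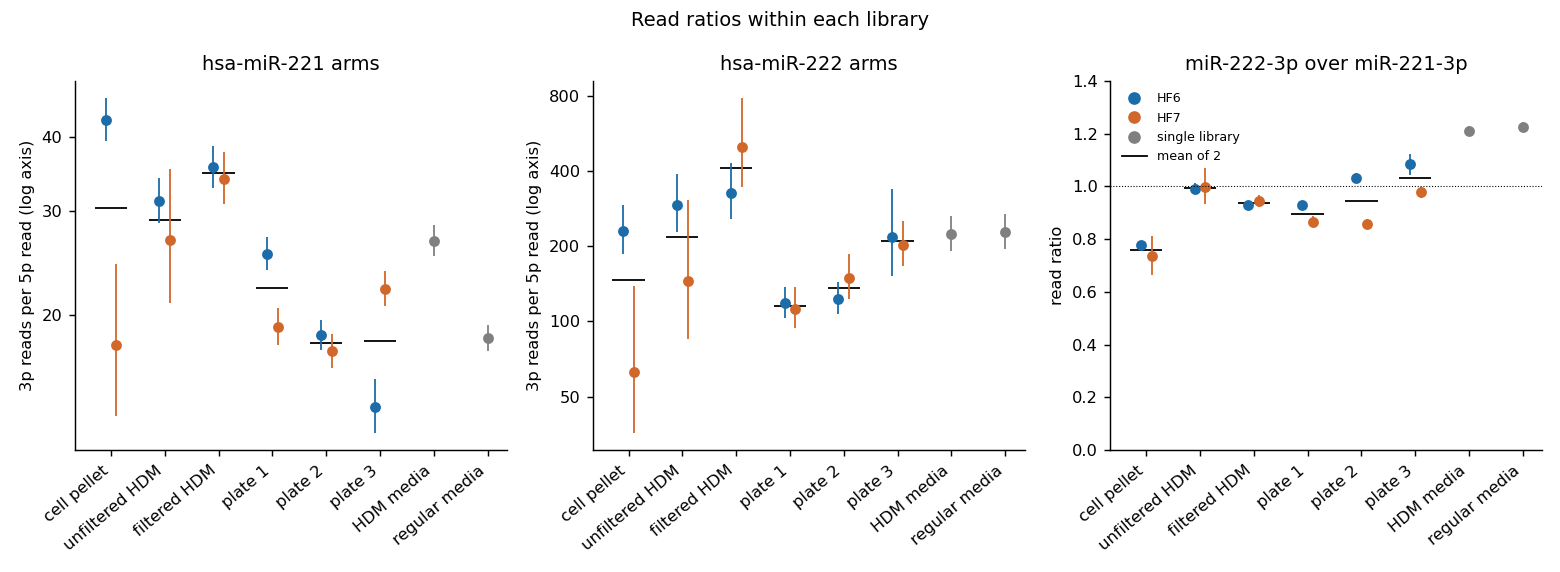
Reads of the 3p strand per read of the 5p strand for miR-221 and miR-222 (left and middle, log axes) and miR-222-3p over miR-221-3p (right, from 0) by kind of sample, with 95% counting intervals. The miR-221 ratio is 26.8 to 35.6 in HDM and 13.96 to 25.4 on plates, and the right panel places pellets lowest and the 2 media highest.

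Across the 14 libraries, the 3p strands varied together and the strands of a hairpin did not. On log2 CPM, miR-221-3p and miR-222-3p had a Pearson r of 0.878 (Spearman 0.815), miR-221-3p and miR-221-5p -0.03, miR-222-3p and miR-222-5p -0.17, and the 5p strands 0.296. These describe libraries that share a cell line, depth and scaling, and the HF7 pellet is low in both 3p strands. The 5p strands had far fewer counts, from 10 to 192 per library for miR-222-5p and as few as 50 for miR-221-5p. The part of counting error in their low correlations was not tested. Among 183 other miRNAs of at least 100 CPM on average, each 3p strand was the 3rd most like the other. miR-221-3p was most like miR-335-3p (r = 0.941) and miR-361-3p (0.902), followed after miR-222-3p by miR-423-5p (0.870) and miR-320a-3p (0.852). miR-222-3p was most like miR-320a-3p (0.890) and miR-671-5p (0.885), followed after miR-221-3p by miR-335-3p (0.866) and miR-361-5p (0.809). For the 5p strands likeness was weaker: miR-221-5p was nearest to miR-4485-3p (0.700), miR-12135 (0.661), miR-590-3p (0.622), miR-4521 (0.608) and let-7a-3p (0.567). miR-222-5p was nearest to miR-21-3p (0.662), miR-30e-3p (0.635), miR-142-5p (0.599), miR-125a-5p (0.586) and miR-27a-3p (0.586). The SD of log2 CPM over the 12 replicated libraries was 0.41 for miR-221-3p, 0.46 for miR-222-3p, 0.26 for miR-221-5p and 0.56 for miR-222-5p, beside a median of 0.48 over 184 miRNAs.

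Of 104 other entries located on chromosome X alone, 48 were tested. On plate 1 against plates 2 and 3 these had a median of -0.52 beside -0.02 for all miRNAs tested, with 2 called higher (miR-224-5p and the low-count miR-514a-3p) and 13 lower, beside 14.6% higher and 11.4% lower of all tested. Apart from miR-505-3p and miR-421, those that fell belong to 1 cluster that holds miR-532, miR-188, miR-500a, miR-362, miR-501, miR-660 and miR-502, such as miR-500a-5p by 1.47 and miR-660-5p by 1.04 on the log2 scale (edgeR adjusted p = 0.000373 and 0.00287). In HDM against plate cells 13 of the 48 rose and 6 fell, with a median of 0.19 beside -0.04, where 15% of all tested were called higher and 16.1% lower. There miR-500a-5p rose by 0.72 and miR-374a-5p fell by 1.29 on the log2 scale (edgeR adjusted p = 0.00447 and 0.000329). On plate 1 all 4 strands of miR-221 and miR-222 had positive differences. In the reported fit miR-222-5p passed (0.91, edgeR adjusted p = 0.0178) and the 3p strands did not, and these calls changed with the fit as given above.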

How the data were processed

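Small RNA of 14 libraries was read from 1 table of expected counts per mature miRNA, not normalized, as deposited by the authors. Per the labels' protocols, the miRNeasy kit was used for RNA and the NEXTflex small RNA kit for libraries. Per the submitters' processing notes, the tools were cutadapt 2.10, Bowtie 1.3.1 and FastQC, with build GRCh38. Of the entries, 143 hold fractions, and the rule behind them is not given in the sources used here. Of the 15 labelled samples, HDM medium without cells was not analysed here, so no background of the medium was measured.

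Counts were rounded. The 12 libraries of 6 kinds were fitted together in edgeR 4.0.16 (quasi-likelihood, TMM, filterByExpr by group, 1 coefficient per kind, R 4.3.3), which kept 534 miRNAs with 99.96% of the counts and left 6 residual degrees of freedom (common biological coefficient of variation 0.217). Calls required an adjusted p under 0.05 (Benjamini-Hochberg over all tested miRNAs). HF7 against HF6 had the kind as a block. Printed CPM use TMM factors over all 14 libraries. Strand ratios of 141 hairpins were tested with limma 3.58.1 on log2 ratios with 0.5 counts added. The ratio of the 3p strands was tested by exact permutation. Intervals are at the 95% level. The table has no molecular identifiers, so counting intervals cover counting error only. Fits were tested on simulated data. The 2 libraries of each kind differed beyond counting error: chi-square per degree of freedom was at least 13.3. This check cannot tell separate cultures from repeat preparations of 1 source. Other pairs were not checked.

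Alternatives were DESeq2 1.42.0, RLE factors, total counts, other filters, limma-voom, HF number as a replicate block, plates grouped by HF number, the compared libraries alone, and each library left out. The 4 strands, the grouping of plates by plate number and the list of other miRNAs on chromosome X were chosen with earlier results of these data known. The text names the 4 strands, the 5 miRNAs most like each, and examples of the called members of that list. A second list of miRNAs is not reported here.

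Mature sequences come from the deposited table, and 3 of the 4 names were matched in the RefSeq table (GRCh38.p14), with the same sequence and coordinates.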

Additional observations from a re-analysis of the deposited data

Results flagged for a closer look

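The difference of miR-221-3p between HDM and pellets had opposite signs in HF6 and HF7 with TMM factors, but not with total counts. Within HF6, the log2 difference in CPM was -0.31 for unfiltered and -0.11 for filtered HDM, so that the pellet was higher. Within HF7 it was 1.09 and 1.22, so that HDM was higher. Each value rests on 1 library per side, and the difference between HF6 and HF7 was not tested. By total-count CPM, HF6 HDM was at 7500 (unfiltered) and 8580 (filtered) against 6368 in the HF6 pellet, so that HDM was higher there as in HF7.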

How the results depend on the processing

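Of 668 values of the 4 strands and their comparisons recomputed under alternatives, 586 kept their direction and side of the threshold, 46 newly passed, 7 no longer passed and 29 turned direction. The cause was not tested. Counts of called miRNAs moved by more than 1.5 times as follows. With plates grouped by HF number, 54 were called in unfiltered HDM against pellets (165 in the reported fit), 95 in filtered HDM against pellets (209), 38 in pellets against plates (174), 49 in HDM against plates (166) and 0 between filtered and unfiltered HDM (3 in the reported fit; 37 at an unadjusted edgeR p below 0.05, and 3 with DESeq2). With the compared libraries alone they were 74 and 118 for HDM against pellets, 14 for filtered against unfiltered HDM, 210 for plate 1 (139) and 0 for plate 3 against plate 2 (1 in the reported fit, 44 at an unadjusted p below 0.05, and 5 with DESeq2). With limma-voom they were 102 for unfiltered HDM against pellets, 69 for pellets against plates, 216 for plate 1 and 14 for plate 3 against plate 2. For plate 3 against plate 2, RLE factors gave 6, total counts 6, no filter 9, the 50-count filter 0, and the replicate block 5. No filter gave 5 for filtered against unfiltered HDM, and the 6 plates alone gave 4 for HF7 against HF6. Without both pellets, an alternative chosen after seeing the data, counts were 10 for filtered against unfiltered HDM, 218 for plate 1 and 22 for plate 3 against plate 2, and both 3p strands passed in HDM against plates (edgeR adjusted p = 0.000456 and 0.000652) and on plate 1 (0.000786 and 0.0114).

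With all replicated libraries or both pellets left out, the values that turned direction did not pass. With total counts, miR-222-5p was at 0.40 in unfiltered HDM against pellets, miR-222-3p at -0.016 in filtered against unfiltered HDM, miR-221-3p at -0.18 in pellets against plates and miR-221-5p at 0.031 in HF7 against HF6. Without a filter, miR-222-5p was at 0.018 in unfiltered HDM against pellets, miR-221-3p at -0.064 in pellets against plates and miR-222-3p at -0.0052 on plate 3 against plate 2. The 50-count filter gave -0.0074 for miR-222-3p in filtered against unfiltered HDM and 0.040 for miR-221-5p in HF7 against HF6. On plate 3 against plate 2, miR-221-5p was at 0.0069 with RLE factors, 0.0052 with DESeq2 and 0.014 without both pellets; in HF7 against HF6 it was at 0.016 with RLE factors and 0.014 with DESeq2. With plates alone, miR-221-3p was at 0.029 in HF7 against HF6. The log2 ratio of the 3p strands between HDM and plates was -0.026 with filtered HDM alone and -0.027 with plates 2 and 3 alone.

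When each library was left out in turn, counts ran from 71 to 219 for unfiltered and from 130 to 255 for filtered HDM against pellets, 0 to 10 for filtered against unfiltered HDM, 85 to 230 for HDM against plates, 60 to 218 for plate 1 and 0 to 22 for plate 3 against plate 2. The count of hairpins with a called ratio in HDM against plates ran from 2 to 35. In unfiltered HDM against pellets, log2 differences ran from -0.36 to 1.05 for miR-221-3p, -0.0043 to 1.49 for miR-222-3p and -0.40 to 0.54 for miR-222-5p, and in filtered HDM from -0.17 to 1.27 for miR-221-3p. In pellets against plates they ran from -0.76 to 0.71 for miR-221-3p, -1.14 to 0.42 for miR-222-3p and -0.28 to 0.025 for miR-222-5p. miR-222-5p ran from -0.81 to -0.28 in HDM against plates. miR-221-5p ran from -0.12 to 0.066 in filtered against unfiltered HDM, -0.31 to 0.20 on plate 3 against plate 2 and -0.11 to 0.12 in HF7 against HF6, and miR-222-3p from -0.066 to 0.21 on plate 3 against plate 2. The strand ratio of miR-221 ran from -0.57 to 0.70 in unfiltered and -0.30 to 0.97 in filtered HDM against pellets, -0.10 to 1.17 in pellets against plates and -0.36 to 0.31 on plate 3 against plate 2. That of miR-222 ran from -0.16 to 1.71 in unfiltered and 0.81 to 2.68 in filtered HDM against pellets and -1.24 to 0.63 in pellets against plates. The ratio of the 3p strands in HDM against plates ran from -0.013 to 0.054.

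The values do not settle whether HF numbers pair the libraries. Over 15 pairs of kinds, deviations from the kind means correlated between -0.207 (unfiltered with filtered HDM) and 0.437 (pellets with plate 3). Of these correlations, 6 were over 0.1. With HF number as a replicate block, miR-222-5p passed in HDM against plates (-0.66, edgeR adjusted p = 0.0447), and exchanging the numbers of filtered HDM, added after seeing the data, left 3 calls between filtered and unfiltered HDM. Total counts moved the median miRNA by 0.18 in HDM against plates and -0.33 in pellets against plates. Depth limits miR-222-5p, with 10 to 192 counts per library.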
